A study of Rattus norvegicus with 49 samples.

Results

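The PAR bZIP factors are a small family of circadian transcription factors, and 7 genes of this family and its partners were described here in rat thyroid. They are Dbp, Tef and Hlf, the PAR bZIP activators, Nfil3, their repressor, and 3 genes under the same clock control, Ciart, Bhlhe40 and Usp2. The genes were chosen by symbol, and a probe was taken as a member when its RefSeq accession mapped to one of the symbols. Of the 7 genes, 6 had a probe and Hlf had none, which gave 8 probes of 30367. Dbp had 3 probes and the other genes 1 each, and all 6 genes passed the filter on dim probes. The choice of genes started from values of Dbp against the controls of 10 months of age, so every comparison with those controls is a description without a test.

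Thyroids of 49 male Sprague Dawley rats were measured on one-colour Agilent arrays, 1 rat and 1 array at a time, in 13 groups. Rats had been injected with 131I, a radioiodine that the thyroid takes up, either at 5 weeks of age (young) or at 17 weeks of age (adult). Young rats received 50 kBq and were killed after 3, 6 or 9 months, or 0.5, 5 or 500 kBq and were killed after 9 months. Adult rats received 50 kBq and were killed after 3, 6 or 9 months. Untreated controls of the same strain and sex were 4, 7, 10 or 13 months old. Each exposed group was set against the controls of its own age, so that adult rats at 3 months shared the 7-month controls with young rats at 6 months, and adult rats at 6 months shared the 10-month controls with all 4 young groups at 9 months. Groups held 4 arrays, except for 3 arrays at 5 kBq and in the 7-month and 13-month controls. The hour of dissection is not given in the sources used here, and each of the genes is known to vary over the day.

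In the circadian clock of mammals, the activators BMAL1 and CLOCK (or NPAS2) bind E-box elements and switch on their own repressors, among them PER, CRY and REV-ERB proteins, and a set of output genes. DBP, TEF and HLF belong to the output. They bind D-box elements, and NFIL3 binds the same elements and represses, with its RNA peaking at the opposite time of day to that of Dbp in many tissues. CIART and BHLHE40 repress the activity of the clock activators, and USP2 is a protease that removes ubiquitin from its targets, clock proteins included.

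The promoters of the genes were searched for these elements. The 250 bases before the start of each gene were taken from RefSeq on the GRCr8 build, for all 6 genes with a probe and 33469 promoters in all. The E-box CACGTG, which reads the same on both strands, stood 3 times before the start of Ciart, at 93, 35 and 21 bases from it, and once each before Tef, at 198 bases, and Bhlhe40, at 220 bases. Of all promoters of this length, 5.59% held it. The windows of Dbp, Nfil3 and Usp2 held none. D-box letters TTATGTAA or TTACGTAA, searched on both strands, were in no window of the 6 genes and in 0.932% of all promoters. The 3 windows with an E-box are shown because their genes are compared with Dbp below, in lower case, 5′ to 3′ on the strand of the gene, with E-boxes in capitals. They are chr2:186112247-186112496 on the minus strand for Ciart, chr7:115206577-115206826 on the plus strand for Tef and chr4:143174200-143174449 on the plus strand for Bhlhe40. The windows of Ciart, Tef and Usp2 lie inside the span that RefSeq gives for the gene, since the start used is not that of the longest transcript. A match of letters is no evidence of binding.
Ciart: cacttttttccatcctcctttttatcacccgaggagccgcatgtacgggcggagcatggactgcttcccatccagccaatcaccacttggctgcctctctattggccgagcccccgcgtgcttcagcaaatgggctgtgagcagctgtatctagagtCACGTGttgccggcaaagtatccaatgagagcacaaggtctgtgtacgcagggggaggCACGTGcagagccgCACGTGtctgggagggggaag
Tef: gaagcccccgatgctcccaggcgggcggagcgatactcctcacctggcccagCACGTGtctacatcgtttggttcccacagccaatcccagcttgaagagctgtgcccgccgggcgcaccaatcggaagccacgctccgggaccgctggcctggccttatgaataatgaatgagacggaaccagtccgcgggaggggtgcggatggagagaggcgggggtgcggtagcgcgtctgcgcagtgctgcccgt
Bhlhe40: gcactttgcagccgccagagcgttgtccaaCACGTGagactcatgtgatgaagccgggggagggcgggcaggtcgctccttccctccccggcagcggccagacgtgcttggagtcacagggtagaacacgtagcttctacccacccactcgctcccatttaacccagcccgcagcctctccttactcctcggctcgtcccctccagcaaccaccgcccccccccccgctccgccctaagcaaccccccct

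A level below is the log2 of the background-subtracted signal intensity minus the 75th percentile of its array. It orders samples within a probe and says nothing about one probe against another. A probe was well above background where the scanner software marked it so. The genes lie on GRCr8 at chr1:105312256-105317205 (Dbp), chr7:115197180-115221930 (Tef), chr2:186108744-186113778 (Ciart), chr8:53308264-53336800 (Usp2), chr4:143174450-143180150 (Bhlhe40) and chr17:12432376-12447605 (Nfil3). Dbp, Tef, Usp2, Bhlhe40 and Nfil3 were well above background on 49 of 49 arrays and Ciart on 20. In whole tissue, fewer cells of a type and less RNA per cell cannot be told apart.

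Of the 49 arrays, 3 stood apart. Replicate 2 of the young 50 kBq group at 3 months was faint, with a 75th percentile of 61 intensity units against 783 to 4172 on the others, and 42.88% of its spots were well above background. Replicate 3 of the same group and replicate 2 of the 7-month controls were low in the 8 follicular thyrocyte markers, among them thyroglobulin (Tg). Their mean over the markers was -3.12 and -3.84, against 1.46 to 3.96 on the 46 arrays that did not stand apart, although 7 of the 8 markers were still well above background on each. Skeletal muscle markers (Acta1, Ckm, Myh1 and Tnnt3) were high on most arrays, with 6.84 to 7.05 in the 10-month controls, and lower in the 13-month controls (4.10 to 4.79), on replicate 4 of the 500 kBq group (4.49) and on replicate 3 of the adult group at 9 months (-2.38). Values are for all 49 arrays unless stated otherwise.

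Dbp, the leading activator of the family, was highest in the 10-month controls and in the adult rats of the same age, and lowest in the 13-month controls. The 10-month controls held 3.59, 3.95, 4.56 and 4.08, and the adult 50 kBq group at 6 months held 3.87, 4.02, 4.14 and 3.79. No array of any other group reached 3.79, so these 8 arrays formed the top with the exception of 1 control at 3.59, which lay below an array at 0.5 kBq. The young groups at 9 months were spread below them. The 0.5 kBq group held 3.78, 1.69, 1.70 and 2.92, the 5 kBq group 2.04, 1.59 and 1.71, the 50 kBq group 2.39, 2.16, 1.70 and 1.72, and the 500 kBq group 3.10, 2.60, 3.42 and 3.48. The 0.5 kBq group thus reached from the level of the controls to the bottom of the scale, while the 5 and 50 kBq groups stayed low on every array.

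At the other ages, most arrays had a low Dbp level. The 4-month controls held 2.70, 1.60, 2.04 and 2.21, and the young group of that age 2.82, 2.66, 2.32 and 2.14. The 7-month controls held 1.99, 3.51 and 2.05, where the 3.51 was the array low in thyrocyte markers. The young group at 6 months held 1.77, 2.04, 1.66 and 1.74, and the adult group at 3 months 1.77, 1.53, 1.78 and 1.91. All 8 exposed arrays of that age were below 2.05. The 13-month controls held 1.61, 1.75 and 1.70, and the adult group of that age 1.68, 2.07, 1.66 and 1.85, so these groups overlapped.

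In the order of group means, Dbp ran from 4.04 ± 0.40 (SD, n = 4) in the 10-month controls through 3.95 ± 0.16 (SD, n = 4) in the adult group at 6 months and 3.15 ± 0.40 (SD, n = 4) at 500 kBq to 1.69 ± 0.07 (SD, n = 3) in the 13-month controls. Neighbours in this order overlapped in their ranges, other than the adult group at 6 months and the 500 kBq group. The other Dbp probes had r = 0.993 and 0.991 with the leading probe over the 49 arrays, and gave log2 differences of -1.99 and -1.98 for 50 kBq at 9 months, next to -2.05 for the leading probe.

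**Figure D1:**
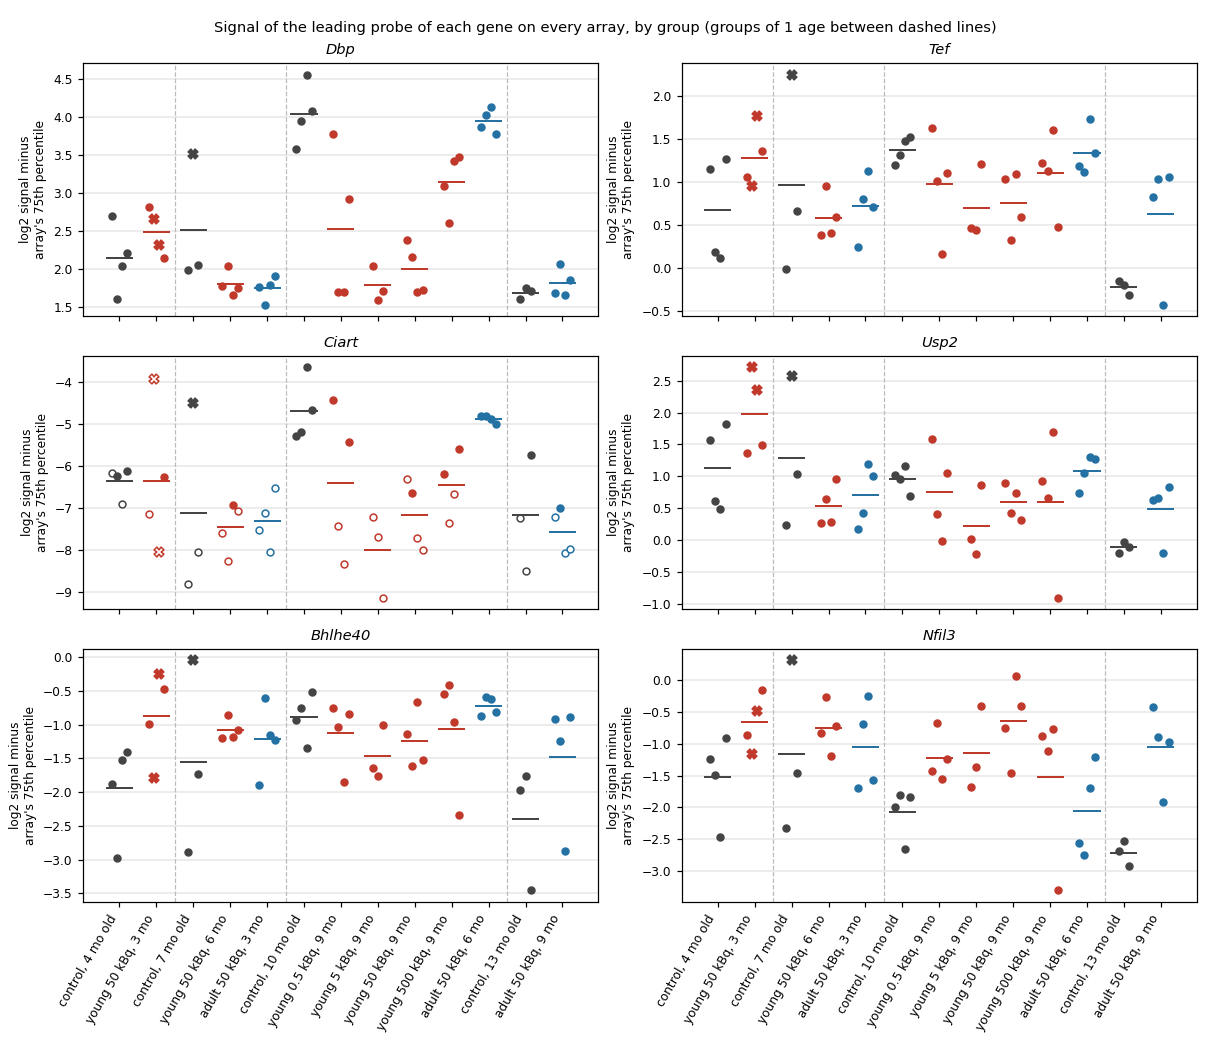
Log2 signal minus the array's 75th percentile (y axis) of the leading probe of 6 genes on each of 49 arrays, by group (x axis), with black for untreated controls, red for rats injected young, blue for rats injected as adults and a line at each group mean. Filled points were well above background, crosses mark the 3 arrays that stand apart and dashed lines separate ages. The 10-month controls and the adult group at 6 months sit at the top for Dbp (means 4.04 and 3.95) and Ciart (means -4.70 and -4.88).

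Tef, the second activator, followed the order of Dbp in part and over a narrower range. Its mean was 1.38 ± 0.15 (SD, n = 4) in the 10-month controls and 1.34 ± 0.28 (SD, n = 4) in the adult group at 6 months, and -0.22 ± 0.08 (SD, n = 3) in the 13-month controls. The 13-month controls held -0.15, -0.20 and -0.31, apart from the next group up in the order, the young group at 6 months at 0.59 ± 0.26 (SD, n = 4). The only other arrays below 0.1 were replicate 3 of the adult group at 9 months (-0.43) and replicate 1 of the 7-month controls (-0.01). The highest Tef level of all, 2.25, was on the 7-month control array that was low in thyrocyte markers.

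Ciart, a repressor of the clock activators, was well above background on all arrays of 2 groups, the 10-month controls (-5.28, -5.20, -3.66 and -4.66) and the adult group at 6 months (-4.82, -4.81, -4.89 and -5.01). It was well above background on no array of the 5 kBq group (-7.21, -7.68 and -9.13) or of the adult group at 3 months (-7.53, -7.11, -8.05 and -6.51). Most other groups had it so marked on 1 or 2 arrays. At 0.5 kBq these were replicates 1 and 4 (-4.44 and -5.43), which were also the arrays with the higher Dbp levels there, while replicates 2 and 3 held -7.44 and -8.32. The 50 kBq group at 9 months held -6.31, -6.64, -7.72 and -7.99, and the 500 kBq group -6.19, -7.36, -6.66 and -5.60. Levels below background have no firm order, so the low Ciart values bound the gene rather than measure it.

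Usp2, the deubiquitinase, did not share the height of Dbp in the 10-month controls (0.96 ± 0.19, SD, n = 4). Its highest means were 1.98 ± 0.65 (SD, n = 4) in the young group at 3 months and 1.28 ± 1.18 (SD, n = 3) in the 7-month controls, both with arrays that stand apart (2.70 and 2.35, and 2.57). Its lowest mean was -0.11 ± 0.09 (SD, n = 3) in the 13-month controls. Bhlhe40, also a repressor of the clock, ran from -0.73 ± 0.14 (SD, n = 4) in the adult group at 6 months to -2.40 ± 0.93 (SD, n = 3) in the 13-month controls. Groups next to each other in order overlapped for both genes.

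Nfil3, which represses through the elements that DBP activates, was low where Dbp was high, but was lowest in the 13-month controls, where Dbp was low too. The 13-month controls held -2.68, -2.53 and -2.93, the 10-month controls -1.99, -1.80, -2.65 and -1.83, and the adult group at 6 months -2.57, -2.75, -1.70 and -1.22. The 50 kBq group at 9 months was the highest on average (-0.64 ± 0.64, SD, n = 4), with -0.75, -1.47, 0.06 and -0.41. The lowest single array was replicate 4 of the 500 kBq group at -3.31.

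Differences from the 10-month controls, which the choice of genes had used for Dbp, are described first. In ascending order of activity, the log2 fold change of Dbp in the 4 young groups at 9 months was -1.52 ± 0.32, -2.26 ± 0.34, -2.05 ± 0.32 and -0.89 ± 0.32 (SE). In the adult group at 6 months it was -0.09 ± 0.32 (SE). Its difference was thus largest at the middle activities, an order that was not tested, and near 0 in the adult group at 6 months. That group differed from the young groups in age at injection and in time since injection, which cannot be told apart here. On the leading probe, every array at 5, 50 and 500 kBq was below every control, and 3 of 4 were at 0.5 kBq. On another Dbp probe, 3 of 4 arrays at 500 kBq were below every control. The 5 comparisons share their control arrays.

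Ciart differed from the same controls by -1.71 ± 0.77, -2.47 ± 0.77 and -1.75 ± 0.77 (SE, log2) after 0.5, 50 and 500 kBq and by -0.18 ± 0.77 in the adult group. At 5 kBq, where no array was well above background, the log2 difference was -3.31 ± 0.83 (SE), or 9.91-fold. It was 9.61-fold when each array was set no lower than the lowest signal of any probe marked as above background on it. Neither fold is a lower bound, since Ciart was still not marked as above background at -6.51 in the adult group at 3 months. These sizes depended on the treatment of dim signals, as Ciart was well above background on 2, 1 and 2 of 4 arrays after 0.5, 50 and 500 kBq. With normexp correction its log2 fold changes were -0.80, -1.61, -0.98 and -0.85 in ascending order of activity. The difference at 5 kBq was thus smaller on that scale. The log2 fold changes of Tef were -0.40, -0.67, -0.62 and -0.27 in ascending order of activity (SE 0.35 to 0.38), and its 50 kBq arrays (1.03, 0.33, 1.09 and 0.59) were all below the controls (1.20 to 1.52). Nfil3 ran the other way, with +0.84, +0.92, +1.43 and +0.55 (SE 0.49 to 0.52). The last value was 1.15 without replicate 4 of the 500 kBq group, which was below all controls. All its arrays at 0.5, 5 and 50 kBq were above the controls. Bhlhe40 differed by -0.59 to -0.18 and Usp2 by -0.73 to -0.20 in the young groups, each within 2 SE.

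The median over the 6 genes was -0.32, -0.70, -0.49 and -0.32 in the young groups in the same order and -0.01 in the adult group at 6 months, while the median of all tested probes lay between -0.02 and 0.06. At 50 kBq, 4 of the 6 genes had exposed and control arrays that did not overlap (Dbp, Tef and Ciart below, Nfil3 above), where 3.99% of all tested probes did so. At 5 kBq these were 3 genes (Dbp, Ciart and Nfil3; 15.4% of probes), at 500 kBq 2 (Dbp and Ciart; 2.92%), at 0.5 kBq 1 (Nfil3; 1.06%) and in the adult group none (4.07%). The counts are for the leading probe of each gene. As the genes were chosen with the Dbp values of these arrays known, nothing is read from these counts.

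The arrays had been scanned on 3 days, and the 10-month controls fell on 2 of them, with 3 arrays on the first and 1, the array with the highest Dbp level, on the last. Within the first and the last day, the log2 fold change of Dbp was -1.48 and -1.64 for the 0.5 kBq group, -2.28 and -2.85 for the 5 kBq group, and -1.82 and -2.63 for the 50 kBq group. In the 500 kBq group 1 array could be compared within a day, with -1.96. The direction of Dbp within days was thus the same as over all arrays for the young groups. In the adult group the Dbp values were 0.00 and -0.66. In the young groups Bhlhe40 turned positive on the last day, at 0.51, 0.34, 0.21 and 0.94 in ascending order of activity. The remaining genes kept their direction there.

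The level of the muscle markers also varied in these groups. Their mean over the 4 genes ranged from 6.48 to 7.41 in the 0.5 kBq group, 6.22 to 7.03 in the 5 kBq group, 6.52 to 7.42 in the 50 kBq group and 4.49 to 7.37 in the 500 kBq group, against 6.84 to 7.05 in the controls. Thyrocyte markers ranged from 1.67 to 3.17, 3.16 to 3.25, 2.22 to 3.23 and 2.19 to 3.36 in the same order of groups and from 2.42 to 3.11 in the controls, so that the 5 kBq group was above all controls. The part of either in the differences of the genes was not tested.

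**Figure D2:**
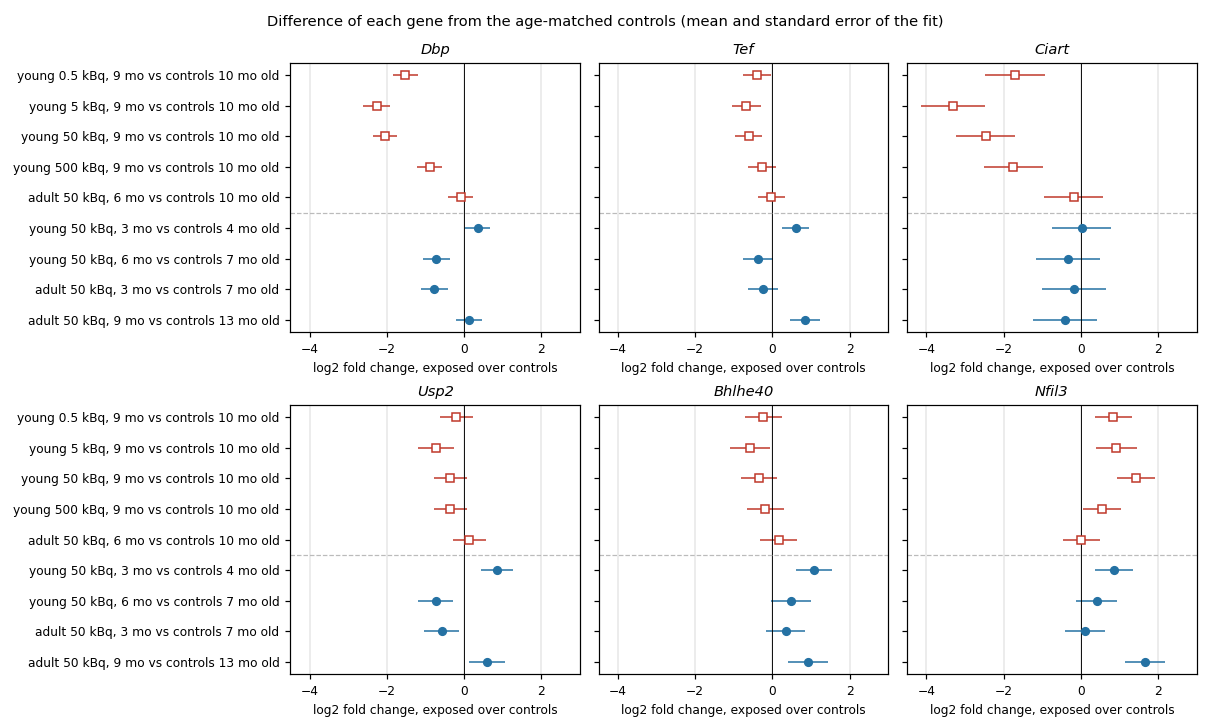
Log2 fold change of exposed over control groups (x axis) for 6 genes in 9 comparisons (y axis), with bars for the standard error of the fit. Open red squares are comparisons with the 10-month controls, given without a test, and filled blue circles are the 4 tested comparisons. Dbp lies between -2.26 and -0.89 in the 4 young groups at 9 months and at -0.09 in the adult group at 6 months.

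Whether 50 kBq changed the genes at other ages was tested against controls that the choice of genes had not used, with limma over all 25284 tested probes. To be called, a gene needed an adjusted p (Benjamini-Hochberg) under 0.01 with a change of more than 1.5-fold. Of the 6 genes, 0 were called in each of the 4 comparisons, where 0.0119% of probes were called in the young group at 3 months, 0% in the young group at 6 months, 0% in the adult group at 3 months and 0.558% in the adult group at 9 months. At an unadjusted p below 0.05 stood Bhlhe40 in the first, Dbp in both comparisons with the 7-month controls, and Tef and Nfil3 in the last. Of all tested probes, 37.9%, 6.56%, 4.74% and 21.9% stood there in the same order, so that 1 and 2 of the 6 genes in the first and the last comparison were near the background.

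The adult group at 9 months gave the largest difference. Nfil3 held -0.42, -0.90, -1.91 and -0.97 there and -2.68, -2.53 and -2.93 in the 13-month controls, so that 4 of 4 arrays were above all controls. The log2 fold change was 1.66 ± 0.52 (SE), with an adjusted p = 0.0555 by limma and p = 0.0571 in a two-sided exact permutation test, where the smallest p that 4 against 3 arrays allow is 0.0286. Over all probes, 9.77% had every exposed array above every control in this comparison. Without the 3 arrays that stand apart, which lie in other groups and bear only on the shared spread, the adjusted p of limma was 0.0137, with 8.93% of all probes called. Tef, the activator, had 0.85 ± 0.38 (SE) with an adjusted p = 0.183, and 3 of 4 arrays above the controls. Bhlhe40 at 0.91 ± 0.51, Usp2 at 0.59 ± 0.46, Dbp at 0.13 ± 0.34 and Ciart at -0.41 ± 0.83 (SE) did not pass either. The median over the 6 genes was 0.72, against -0.14 for all probes. Muscle markers were lower in these controls (4.10 to 4.79) than on 3 of the 4 exposed arrays (6.80 to 7.07). Thyrocyte markers were higher in these controls (3.70 to 3.96) than on the exposed arrays (2.60 to 3.38), with 8 of 8 genes lower after exposure and a median of -0.81, and their part in the difference was not tested. With the muscle marker level as a covariate, the log2 fold change of Nfil3 was 1.61, with an adjusted p = 0.0312 by limma. This covariate was chosen after seeing the data, and the remaining exposed array had a muscle level of -2.38. The part of muscle content in the difference was not tested.

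In the adult group at 3 months, Dbp was lower than the 7-month controls by 0.77 ± 0.34 (SE) on the log2 scale, with 4 of 4 arrays below all controls (limma adjusted p = 0.997, two-sided exact permutation p = 0.0286). Over all probes 7.22% had every exposed array below every control. In the young group at 6 months, Dbp was lower than the same controls by 0.72 ± 0.34 (limma adjusted p = 0.748), with 3 of 4 arrays below. On the other Dbp probes 4 of 4 arrays were below there, with log2 fold changes of -0.90 and -0.84. Both differences of the leading probe rested on the control array that was low in thyrocyte markers, at 3.51. Without it they were -0.27 and -0.22. Dbp kept its direction, but that of Tef and Ciart in both groups, and of Usp2 in the adult group, turned. Ciart went from -0.18 to 1.12 in the adult group at 3 months and from -0.34 to 0.97 in the young group at 6 months, Tef from -0.24 to 0.40 and from -0.38 to 0.26, and Usp2 from -0.58 to 0.06. The medians over the 6 genes with all arrays were -0.21 and -0.36, against -0.11 and -0.11 for all probes.

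In the young group at 3 months, all 6 genes had a positive difference from the 4-month controls, with a median of 0.73, where the median of all probes was 0.30. The largest was Bhlhe40 at 1.07 ± 0.47 (SE, limma adjusted p = 0.0958), with 3 of 4 arrays above all controls. Nfil3 had 0.86 ± 0.49, Usp2 0.85 ± 0.42, Tef 0.60 ± 0.35, Dbp 0.35 ± 0.32 and Ciart 0.02 ± 0.77. This comparison held 2 of the 3 arrays that stand apart. Without them Bhlhe40 was at 1.21, Nfil3 at 1.01, Dbp at 0.35, Tef at 0.53, Usp2 at 0.30 and Ciart at -0.34, none of them called, and the median of all probes was 0.02.

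Differences between these effects were tested by interaction contrasts in the same fit, which called none of the 6 genes and 0% of probes at an adjusted p below 0.01. The effect on Dbp was higher by 1.12 ± 0.47 (SE) in young than in adult rats at 3 months (unadjusted p = 0.0213, adjusted p = 0.112 by limma). For Usp2, the effect at 6 months was lower by 1.59 ± 0.62 than at 3 months in young rats (unadjusted p = 0.0149, adjusted p = 0.10). For Nfil3, the effect at 9 months was higher by 1.56 ± 0.74 than at 3 months in adult rats (unadjusted p = 0.0424, adjusted p = 0.304). These 3 values rested on the arrays that stand apart. Without those arrays they were 0.62 for Dbp, -0.40 for Usp2 and 0.82 for Nfil3 (adjusted p = 0.844, 0.962 and 0.672 by limma).

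Whether the other genes moved with Dbp among animals of the same group, apart from differences between groups, was asked next. A limma fit with 13 group means and the Dbp level as a covariate was run over 25281 probes. Ciart had the steepest slope of the 5 genes, 1.68 ± 0.30 (SE) log2 units per log2 unit of Dbp (limma adjusted p = 0.0163). The slope was 0.58 ± 0.16 for Tef (limma adjusted p = 0.0827), 0.69 ± 0.19 for Usp2 (adjusted p = 0.0829), 0.36 ± 0.24 for Bhlhe40 (adjusted p = 0.415) and 0.02 ± 0.26 for Nfil3 (adjusted p = 0.974). No gene passed the threshold of 0.01, nor did any other probe (0% called), though 4818 probes had an unadjusted p below 0.05 and 5 an adjusted p below 0.05. By p, Ciart ranked 3 among the 25281 probes.

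Over the deviations of the 49 arrays from their group means, Pearson's r with Dbp was 0.68 for Ciart (permutation p = 0.00039), with Spearman's rho of 0.58 (p = 0.00109). For Tef r was 0.52 (permutation p = 0.0116) and rho 0.39 (p = 0.0323), and for Usp2 r was 0.51 (permutation p = 0.0137) and rho 0.50 (p = 0.00544). For Bhlhe40 r was 0.24 (permutation p = 0.267) and for Nfil3 0.01 (permutation p = 0.951). These belong to a family of 15 relations, with 10 clock genes, and the adjusted p-values above cover all probes. Without the 2 arrays farthest from the median of Dbp (replicate 1 at 0.5 kBq and replicate 2 of the 7-month controls), r was 0.56 for Ciart and 0.36 for both Tef and Usp2. Within the 3 scan days, r was 0.66, 0.50 and 0.93 for Ciart, 0.62, 0.36 and 0.50 for Tef, and 0.74, 0.23 and 0.60 for Usp2.

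The relation of Ciart depended on how dim signals were treated. With normexp background correction its slope was 0.22 (limma adjusted p = 0.492), below those of Tef (0.60, adjusted p = 0.0327) and Usp2 (0.60, adjusted p = 0.0498). When single arrays were left out, its adjusted p ran from 0.00274, without the faint array, to 0.364, without replicate 2 of the 7-month controls, and it was 0.0382 with a slope of 1.33 without all 3 arrays. Among the clock genes, Nr1d1, which codes for the repressor REV-ERB alpha, had a slope of 0.82 on Dbp (limma adjusted p = 0.0818), Per3 one of 0.59 (adjusted p = 0.0807) and the activator Npas2 one of -0.54 (adjusted p = 0.0934).

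**Figure D3:**
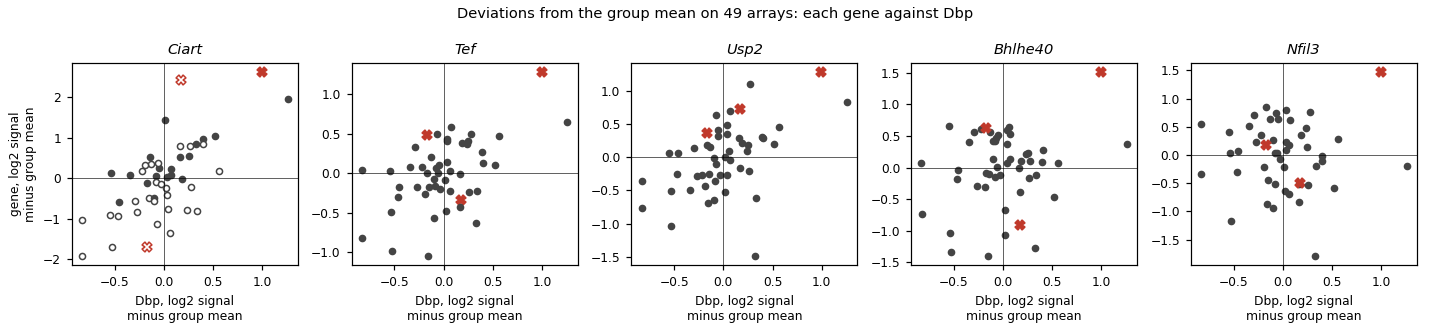
Deviation of each gene from its group mean (y axis, log2 signal) against that of Dbp (x axis, log2 signal) on 49 arrays, with crosses for the 3 arrays that stand apart and open points where the gene was not well above background. Ciart (r = 0.68), Tef (0.52) and Usp2 (0.51) lie along a rising cloud, Bhlhe40 (0.24) and Nfil3 (0.01) along none.

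Over all 49 arrays, differences between groups included, the likeness of every tested gene to Dbp was measured by Pearson's r, as a description over arrays that share groups and scan days. Of 13190 genes, Ciart was the most like (r = 0.80), followed by Nr1d1 (0.68), Tef (0.64), Kifc3, a kinesin (0.62), Hrh3, a histamine receptor (0.62), Arc, an immediate early gene of neurons (0.61), Gpr146 (0.61), Hpdl (0.59), Tbrg4 (0.58) and Nr1d2, which codes for REV-ERB beta (0.57). By Spearman's rho, Nr1d1 (0.82), Nr1d2 (0.71) and Tef (0.71) were more like Dbp than Ciart (0.70), which was well above background on 20 arrays. By r, the list was headed by Ciart and Tef, which are among the chosen genes, and by the clock repressor Nr1d1. The ranking includes the Dbp values that were known when the genes were chosen. It is therefore no independent test of the choice, and nothing is read from the place of these genes in it. The most opposite were Lonrf3 (r = -0.72), Rras2, a small GTPase (-0.65), C15h14orf93 (-0.59), Npas2 (-0.58) and Hsp90b1, a chaperone of the endoplasmic reticulum (-0.57).

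The group means of these genes shared the order of Dbp in part. Nr1d1 was at -0.58 in the adult group at 6 months, -0.79 in the 10-month controls and -0.86 at 500 kBq. Its lowest mean was -4.57 ± 0.21 (SD, n = 3) in the 13-month controls. Next was the adult group at 9 months at -2.73 ± 1.40 (SD, n = 4). The lowest array of that adult group, at -4.80, was within the range of the 13-month controls (-4.81 to -4.40). Npas2 was at -1.53 in the 10-month controls and -1.29 in the adult group at 6 months, and at -0.20 in the 13-month controls, but its lowest mean, -1.92, was in the young group at 3 months. Hsp90b1 was at 3.01 in the 10-month controls and 5.10 in the 13-month controls, with its lowest mean, 2.74, in the young group at 3 months as well. Nr1d2 had its highest mean in that group (-3.44) and its lowest in the young group at 6 months (-4.58), with the 13-month controls at -4.15.

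The rest of the clock was followed by lists of 8 repressor genes, 7 of them measured, and 6 activator genes, 3 of them measured (Bmal1, Clock and Npas2). In the 4 tested comparisons limma called 0 of either list. The largest differences among the repressors were Nr1d1 in the adult group at 9 months (1.84, adjusted p = 0.0400, 3 of 4 arrays above the controls), Cry2 in the young group at 3 months (1.76, adjusted p = 0.0220, 4 of 4 above) and Per1 in the same group (1.09, adjusted p = 0.0814). Among the activators they were Clock in the adult group at 9 months (-0.94, adjusted p = 0.0320, 4 of 4 below), Bmal1 in the same group (0.94, adjusted p = 0.240) and Npas2 in the young group at 3 months (-0.84, adjusted p = 0.0830).

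Against the 10-month controls, again as a description, the activators Bmal1 and Npas2 were higher in the young groups at 9 months, and Clock lay near 0. In ascending order of activity, Bmal1 differed by 0.72, 0.83, 1.15 and 0.73 (log2), Npas2 by 0.68, 1.19, 1.00 and 0.56, and Clock by -0.07, 0.12, 0.13 and 0.0021. Nr1d1 differed by -0.65, -1.42, -0.96 and -0.06, and Nr1d2 by -0.35, -0.75, -0.69 and 0.06. In the adult group at 6 months Bmal1, Npas2, Nr1d1 and Nr1d2 differed by 0.16, 0.24, 0.22 and 0.11. The median over the repressors was -0.33, -0.57, -0.30 and 0.06 in the young groups. Of the 7 repressors measured, 3, 2, 3 and 4 were higher than the controls in the same order.

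Of 7 known targets of the PAR bZIP factors, 5 were measured well enough to test, and limma called 0 of them in the 4 tested comparisons. The largest differences, in the adult group at 9 months, were Ppara, a receptor for fatty acids (1.81, adjusted p = 0.111), Nr1i3, the xenobiotic receptor CAR (1.45, adjusted p = 0.0561), and Pdxk, which activates vitamin B6 (-0.78, adjusted p = 0.137). Against the 10-month controls the median over the targets was -0.12, -0.25, -0.02 and -0.03 in the 4 young groups and 0.06 in the adult group, while Dbp differed by up to -2.26. Of 5 glucocorticoid-responsive genes, limma called Dusp1, a phosphatase of MAP kinases, in the adult group at 9 months (1.96 ± 0.37, SE, adjusted p = 0.00716, 4 of 4 arrays above the controls), where 0.558% of all probes were called. Leaving out each of the 7 arrays compared in turn, limma lost the call in 5 fits, those without replicate 1, 2 or 4 of the exposed group or replicate 1 or 2 of the controls, with an adjusted p up to 0.0654. The call was also lost with normexp correction (1.16, adjusted p = 0.0568) and with scan day as a block (adjusted p = 0.016). Zbtb16 in that group (-1.46, adjusted p = 0.0505) and Fkbp5 in the young group at 6 months (-1.67, adjusted p = 0.391) were the next largest. Of 5 immediate early genes 0 were called. The largest were Egr1 in the adult group at 3 months (-2.15, adjusted p = 0.957), Nr4a1 (1.76, adjusted p = 0.0335) and Fos (1.65, adjusted p = 0.0826) in the adult group at 9 months.

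Several of the genes followed the level of the muscle markers. Over 49 arrays, Pearson's r with the mean of the 4 muscle markers was 0.64 for Tef, 0.60 for Usp2, 0.60 for Bhlhe40, 0.42 for Nfil3, 0.27 for Ciart and 0.24 for Dbp, and without the 3 arrays that stand apart it was 0.64, 0.55, 0.62, 0.39, 0.23 and 0.23. Spearman's rho over the 49 arrays was 0.73, 0.78, 0.70, 0.46, 0.34 and 0.48 in the same order of genes. With the thyrocyte markers r was -0.63 for Usp2, -0.60 for Tef, -0.46 for Bhlhe40, -0.43 for Nfil3, -0.25 for Dbp and -0.20 for Ciart, and without the 3 arrays it was -0.69, -0.64, -0.42, -0.38, -0.37 and -0.41. Spearman's rho with them over the 49 arrays was -0.65, -0.67, -0.54, -0.41, -0.45 and -0.36 in the same order of genes. These are descriptions over arrays of 13 groups, and the part of muscle or thyrocyte content in the levels of the genes was not tested. The array with the lowest muscle level, replicate 3 of the adult group at 9 months, had the lowest Tef level of all (-0.43) and low Usp2 (-0.20) and Bhlhe40 (-2.88) levels, and replicate 4 of the 500 kBq group had the lowest Usp2 (-0.89) and Nfil3 (-3.31) levels. Its Dbp level was 3.48, the highest of its group.

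**Figure D4:**
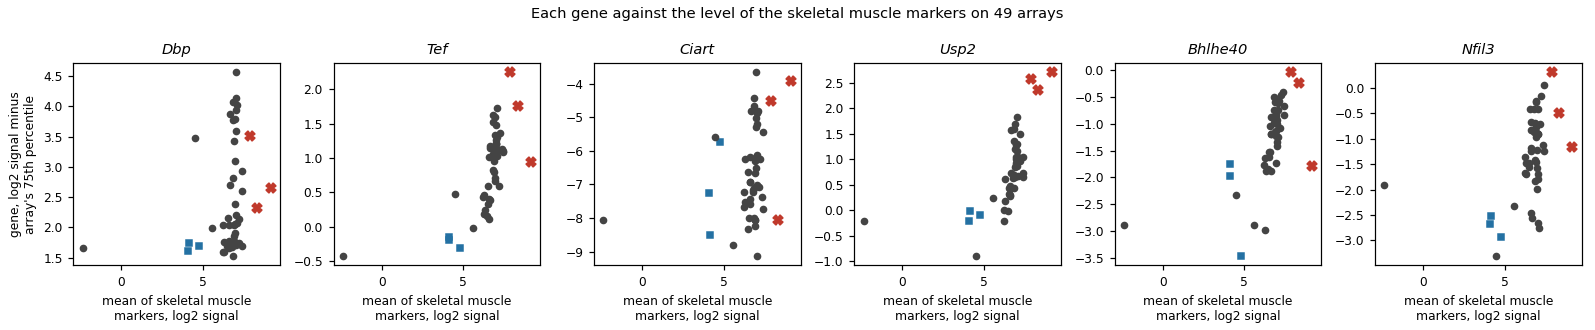
Log2 signal of each of 6 genes (y axis) against the mean log2 signal of 4 skeletal muscle markers (x axis) on 49 arrays, with red crosses for the 3 arrays that stand apart and blue squares for the 13-month controls. Tef, Usp2 and Bhlhe40 are low on the arrays with little muscle signal (Pearson's r = 0.64, 0.60 and 0.60). Dbp (r = 0.24, Spearman's rho = 0.48) and Ciart (r = 0.27, rho = 0.34) span most of their range at a muscle level near 7.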

How the data were processed

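Each array was hybridised with Cy3-labelled total RNA of 1 flash-frozen thyroid. The authors deposited 1 file per array from Agilent Feature Extraction, whose processed signal, an intensity, had the spot's background taken off and no scaling between arrays applied. The same deposited files hold, in other units, marks of 0 or 1 for signals well above background, saturated spots and outliers. The submitters' processing notes name Partek, without its settings. A further table that the authors deposited holds log2 fold changes of their own comparisons and was not used.

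Control spots and outlier spots were left out, the log2 intensity of each array was reduced by its 75th percentile, and spots of 1 probe were averaged. No spot was saturated. Probes were named through RefSeq accessions, and a gene was read from its probe of highest mean signal. A probe was kept when 3 or more of 49 arrays had it well above background (25284). One limma 3.58.1 model in R 4.3.3 held a mean for each of the 13 groups (36 residual and 2.22 prior degrees of freedom). Adjusted p-values cover all tested probes. Where every array of a group was dim and none of the other was, a further fold is given. It sets each dim array no lower than the lowest signal marked as above background on it. Exact permutation tests, two-sided, compared single values, and correlations by 100000 permutations of deviations within groups. The scripts were tested on simulated data. Plots were drawn with Python 3.11.15 and matplotlib 3.10.9.

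The genes, the lists and the tests were chosen with earlier results of these data known. Genes named are the 7 members, the genes of 5 lists that were called or had the 3 largest differences of their list in a tested comparison, and the 10 genes most like Dbp and the 5 most opposite. Clock genes with a value against the 10-month controls were named after their values were seen. No source says that replicate numbers pair rats across groups. Same-numbered arrays deviated together, with every correlation over 0.1, only in the young group at 6 months and the 7-month controls (0.33, 0.32 and 0.14), so the replicate number was used as a block in an alternative fit. The number of arrays limits the precision, and 1 array stands for 1 rat. Alternatives were quantile normalization, normexp background correction, other filters on dim probes, scan day, slide or replicate number as a block, array weights, averaged probes, only the 2 groups compared, an adjusted p under 0.05 and each array left out. Leaving out the 3 arrays that stand apart and a muscle covariate were chosen after seeing the data.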

Additional observations from a re-analysis of the deposited data

Results flagged for a closer look

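Single arrays lay far from the rest of their group of 4 in 6 of 80 tests, where chance gives about 1 in 20. The tests took the levels of the 6 genes and the thyrocyte and muscle marker means in each group of 4. They share arrays and are not independent. Among the genes these were Tef on replicate 3 of the adult group at 9 months (-0.43, others 0.82 to 1.06), Nfil3 on replicate 4 of the 500 kBq group (-3.31, others -1.11 to -0.76) and Ciart on replicate 3 of the 4-month controls (-6.92, others -6.24 to -6.13). For the mean of the skeletal muscle markers they were replicate 4 of the 500 kBq group (4.49, others 6.93 to 7.37), replicate 1 of the adult group at 3 months (6.32, others 6.86 to 6.96) and replicate 3 of the adult group at 9 months (-2.38, others 6.80 to 7.07). The arrays with the outlying Tef and Nfil3 levels were thus also those with the lowest muscle levels of their groups.

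Between the young 50 kBq groups at 3 and at 9 months, 3 genes differed in direction on every exposed array. Each array was above the mean of its age-matched controls at 3 months and below it at 9 months. The log2 fold change of Dbp was 0.35 at 3 months and -2.05 at 9 months, a difference of 2.40. That of Tef was 0.60 and -0.62, a difference of 1.22, and that of Usp2 was 0.85 and -0.36, a difference of 1.21. By group means alone, Bhlhe40 (1.07 and -0.35) and Ciart (0.02 and -2.47) had opposite signs as well. The 3-month group held arrays that stand apart, without which the value of Usp2 was smaller, as given above. None of these differences was tested, since the 9-month value of Dbp was known when the genes were chosen.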

How the results depend on the processing

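In the 4 tested comparisons the number of the 6 genes called stayed at 0 under quantile normalization, normexp correction, no filter or a stricter filter on dim probes, scan day, slide, averaged probes, fits of only the 2 groups compared, the muscle covariate and each array left out. Array weights estimated gene by gene called 4 genes in the adult group at 9 months (Tef, Nfil3, Bhlhe40 and Usp2), where 30.4% of all probes were then called, 1 gene in the interaction of adult rats at 9 against 3 months, and 1 gene in the co-variation with Dbp. Weights by restricted maximum likelihood did not converge and were not used. An adjusted p under 0.05 called 1 gene in the co-variation, Ciart, and single arrays left out gave 0 to 1, with 1 without replicate 1 or 2 of the young group at 3 months or replicate 4 of the 500 kBq group. Leaving out single arrays, the log2 fold change of Nfil3 in the adult group at 9 months was 1.45 to 1.95 and its adjusted p by limma 0.0198 to 0.190.

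Directions turned mainly for Ciart, which was dim on most arrays. In the young group at 3 months its log2 fold change of 0.02 became -0.82 with quantile normalization, -0.13 with slide as a block, -0.35 with array weights, -0.34 without the 3 arrays that stand apart and -0.17 with the muscle covariate. In the adult group at 3 months Ciart became 0.11 with slide, 0.75 with array weights and 1.12 without the 3 arrays, in the young group at 6 months 0.64 with array weights and 0.97 without the 3 arrays, in the adult group at 9 months 0.0948 with array weights, and in the adult group at 6 months 0.0484 with slide. Tef in the adult group at 3 months became 0.10 with array weights and 0.40 without the 3 arrays, and 0.26 without them in the young group at 6 months. Usp2 in the adult group at 3 months became 0.0636 without them. The cause was not tested.

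With 1 array left out at a time, Ciart ranged from -0.79 to 0.58 in the young group at 3 months, -1.08 to 0.31 in the adult group at 9 months and -0.38 to 0.16 in the adult group at 6 months. In the young group at 6 months the ranges were -0.87 to 0.26 for Tef, -0.18 to 1.14 for Nfil3, -0.19 to 1.23 for Bhlhe40 and -1.19 to 0.97 for Ciart. In the adult group at 3 months they were -0.73 to 0.40 for Tef, -0.48 to 0.84 for Nfil3, -0.33 to 1.09 for Bhlhe40, -1.03 to 1.12 for Ciart and -1.10 to 0.0636 for Usp2. Their lowest values came without replicate 1 and their highest without replicate 2 of the 7-month controls. The median over the 6 genes against the 10-month controls turned from -0.32 to 0.04 at 500 kBq without replicate 4, the array low in muscle markers, was -0.06 at 0.5 kBq without replicate 3, and in the adult group at 6 months, where it was -0.01, was 0.14 with slide as a block and -0.13 to 0.10 with single arrays left out.

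With the replicate number as a block, 0 of the 6 genes were called in every tested comparison, the adjusted p of Ciart in the co-variation was 0.0319, and the median over the genes against the 10-month controls was -0.32, -0.70, -0.49, -0.32 and -0.01. The block changed no call of the 6 genes. Dusp1 in the adult group at 9 months lost its call with the block (adjusted p = 0.0116 by limma), without the filter on dim probes (0.0107) and in a fit of only the 2 groups (0.0493).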
